A study of Mus musculus with 3 samples.

Results

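Annexins, S100 proteins and galectins were followed as 10 transcripts of 18029 in the deposited gene tables: Anxa1, Anxa2, Anxa5, Anxa6, S100a4, S100a6, S100a10, S100a11, Lgals1 and Lgals3. They were taken as a named list, chosen with earlier results of these data in view, and all 10 passed the filter on low counts in both lineages. B6D2F1 recipients were conditioned with total body irradiation, received B6 bone marrow, B6 T cells and a small number of TEa TCR-transgenic T cells (CD4+ cells of 1 specificity for an Ea peptide), and were given saline or cyclosporine A (CSA, a calcineurin inhibitor) at 5 or 50 mg/kg daily from day 0 to day 6. Spleens were taken on day 7 from 6 mice per group, combined in pairs into 3 hashtagged pools, and sorted CD4+ and CD8+ donor T cells were captured together, so that 1 droplet capture held each treatment. Capture and treatment cannot be told apart. All recipients carried the same allogeneic graft, and every group therefore describes T cells in an irradiated, alloreactive setting.

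Annexins bind phospholipid membranes when calcium is present. S100 proteins are small EF-hand calcium binders, and several of them pair with annexins, as S100a10 does with Anxa2 and S100a11 does with Anxa1. Galectins bind beta-galactosides on glycoproteins. In T cells many of these genes are low at rest and abundant in effector and memory states, and Lgals1 and Lgals3 are known as regulators of T cell signaling and survival.

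The tables held 10371 CD4+ and 10833 CD8+ cells, of which 280 were marked TEa and were summed apart. UMI totals per pool ran from 3994968 to 7592334 in CD4+ and from 4392100 to 11454636 in CD8+ cells, and the median UMIs per cell were 3097, 4396 and 5979.5 in CD4+ and 4108, 6121.5 and 7183 in CD8+ cells under saline, the lower and the higher dose, so that depth moved with treatment. Cell barcodes shared by 2 or more captures numbered 218 of 20986 distinct ones. Of 7 T cell markers the only ones at 0 were Cd8a in CD4+ and Cd4 in CD8+ cells, while Cd8b1 was present in CD4+ cells. The authors may have selected cells on Cd8a and Cd4 transcripts, so these zeros are no check of lineage. Levels below are CPM, UMIs scaled to a common library total, with TMM, and since 5' counts do not scale with transcript length they are compared between groups, not between genes. Levels within clusters, clonotype classes and TEa cells, and sums of markers, are CPM without TMM. SEs of log2 differences were taken from the fit as the difference over the root of its F statistic and are approximate.

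Together the 10 transcripts made up 0.965% ± 0.0408 (SD, n = 3 pools) of all UMIs in CD4+ cells under saline, 1.28% ± 0.0105 with lower dose CSA and 2.05% ± 0.00841 with higher dose CSA. In CD8+ cells these shares were 1.17% ± 0.00884, 1.75% ± 0.037 and 2.36% ± 0.123. In both lineages the pools of the 3 groups lay apart on this sum, in the order of dose. The treatment contrasts were part of what the list was chosen on, so the levels by dose and cluster below are descriptions without p-values, and nothing is drawn from the calls.

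Among the annexins, Anxa1, a formyl peptide receptor ligand better known for its anti-inflammatory role in phagocytes, had the widest range. Its level in CD4+ cells was 70.0, 49.8 and 60.6 CPM in the saline pools, 91.7, 76.2 and 85.7 CPM at 5 mg/kg, and 349.8, 369.8 and 349.1 CPM at 50 mg/kg. In CD8+ cells it was 40.9, 34.8 and 34.6 CPM, then 65.6, 66.6 and 58.3 CPM, then 351.6, 384.1 and 319.6 CPM. Every pool at the higher dose stood above every other pool, while the step from saline to the lower dose was small. The log2 difference from saline was 0.51 ± 0.09 (SE) with the lower and 2.58 ± 0.08 with the higher dose in CD4+ cells, and 0.78 ± 0.09 and 3.26 ± 0.08 in CD8+ cells.

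Anxa2, which scaffolds membrane and actin with S100a10, rose from 466.7 ± 6.23 to 630.5 ± 12.5 and 1141 ± 31.4 CPM (SD, n = 3 pools) in CD4+ cells and from 700.4 ± 7.4 to 952.1 ± 39.6 and 1447 ± 108 CPM in CD8+ cells. Anxa5, the phosphatidylserine binder used as an apoptosis stain, went from 142.3 ± 3.53 to 182.2 ± 5.47 and 295.2 ± 2.93 CPM in CD4+ cells. Anxa6, which has more annexin repeats than the others, had the smallest annexin step, with a log2 difference of 0.97 ± 0.04 in CD4+ and 0.64 ± 0.03 in CD8+ cells at 50 mg/kg. Both Anxa5 and Anxa6 took most of their rise between the lower and the higher dose in CD4+ cells, 0.70 ± 0.04 and 0.71 ± 0.04 on the log2 scale against 0.35 ± 0.05 and 0.27 ± 0.04 between saline and the lower dose.

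The S100 genes moved already at the lower dose. S100a6, a binder of annexins and of the calcyclin-binding protein, was at 1677, 1534 and 1594 CPM in the saline pools of CD4+ cells, 3731, 3778 and 3905 CPM at 5 mg/kg, and 6375, 6368 and 6727 CPM at 50 mg/kg. In CD8+ cells its values were 1845, 1774 and 1869 CPM, then 5376, 5425 and 5535 CPM, then 8577, 8695 and 9803 CPM. No pool of one group reached a pool of the next. Its log2 difference was 1.25 ± 0.03 and 2.02 ± 0.04 in CD4+ cells and 1.57 ± 0.04 and 2.30 ± 0.05 in CD8+ cells, at the lower and the higher dose, and it had the largest lower dose difference of the 10 transcripts in both lineages.

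S100a4, a binder of non-muscle myosin linked to cell motility, was at 164.6, 125.9 and 140.6 CPM under saline in CD4+ cells, 290.7, 270.9 and 284.3 CPM at 5 mg/kg and 812.5, 774.3 and 783.8 CPM at 50 mg/kg. Its higher dose log2 difference was 2.47 ± 0.06 in CD4+ and 2.62 ± 0.06 in CD8+ cells, next in size after that of Anxa1. S100a10, the Anxa2 partner, differed by 0.72 ± 0.03 and 1.70 ± 0.03 in CD4+ cells and by 1.00 ± 0.03 and 1.76 ± 0.03 in CD8+ cells. S100a11, the Anxa1 partner, took most of its difference at the lower dose, with 0.82 ± 0.04 and 1.14 ± 0.04 in CD4+ cells and 1.07 ± 0.05 and 1.21 ± 0.05 in CD8+ cells, and the difference between doses in CD8+ cells was 0.14 ± 0.05.

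Lgals1 followed the S100 genes, from 2561 ± 103 to 3908 ± 157 and 6611 ± 174 CPM in CD4+ cells and from 3202 ± 48.9 to 5888 ± 268 and 7705 ± 361 CPM in CD8+ cells. Lgals3 had another course. Its level in CD4+ cells was 558.6, 433.5 and 489.7 CPM under saline, 680.3, 629.3 and 621.5 CPM at 5 mg/kg and 536.9, 521.0 and 600.2 CPM at 50 mg/kg, so that the saline and higher dose pools overlapped. In CD8+ cells it was 899.1, 876.8 and 863.8 CPM, then 1434, 1513 and 1512 CPM, then 1012, 1001 and 1467 CPM, where the third pool at the higher dose stood with the lower dose pools. The log2 difference at 50 mg/kg was 0.17 ± 0.07 in CD4+ and 0.40 ± 0.10 in CD8+ cells, and without that pool the CD8+ value was 0.20. From the lower to the higher dose Lgals3 fell by 0.22 on the log2 scale in CD4+ and by 0.36 in CD8+ cells. DESeq2 called neither of these falls, and the CD4+ fall was also lost without the first 5 mg/kg pool or the second 50 mg/kg pool. The CD4+ value at 50 mg/kg was -0.06 in cells outside the cycling clusters, and scaled by library size alone Lgals3 was at -0.27 in CD4+ and -0.13 in CD8+ cells.

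**Figure D1:**
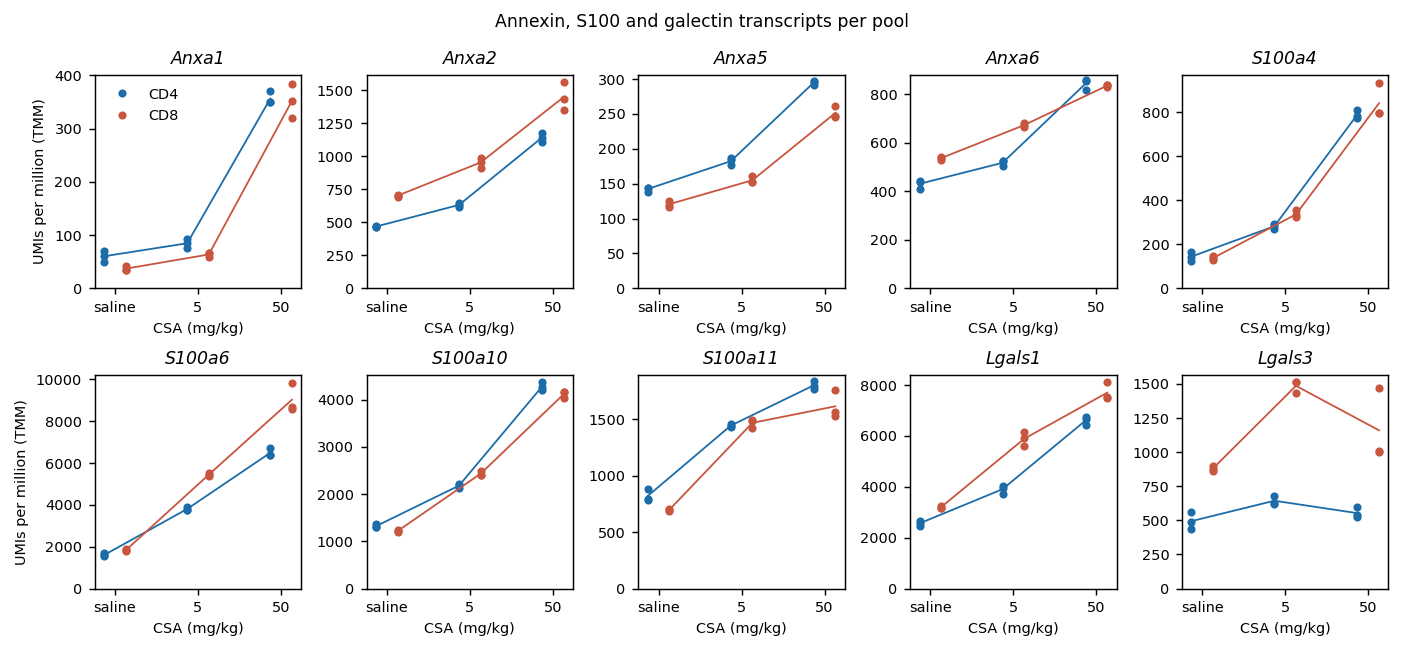
Level of each transcript (y axis, TMM-scaled CPM, linear from 0) in every pool by CSA dose (x axis), with CD4+ pools in blue, CD8+ pools in red and lines through the group means. Anxa1 stayed low until 50 mg/kg, S100a6 climbed at both steps, and on this scale Lgals3 peaked at 5 mg/kg in both lineages. Without TMM the CD4+ saline and 5 mg/kg pools of Lgals3 overlapped.

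Over the 10 transcripts, 10 were called higher at each dose in each lineage (edgeR quasi-likelihood test, Benjamini-Hochberg adjusted over all genes, threshold 0.05). Of all genes tested, 26.1% were called higher in CD4+ cells with the lower and 34.7% with the higher dose, and 29.9% and 37.1% in CD8+ cells. Between the lower and the higher dose 10 members were called in either direction in each lineage, beside 41.2% of all CD4+ and 41.0% of all CD8+ genes, with positive log2 differences for 9 of them and negative ones for Lgals3. The median log2 difference of the list at 50 mg/kg was 1.33 in CD4+ and 1.24 in CD8+ cells, beside medians of -0.01 and 0.00 over all genes. With TMM, pools did not overlap with saline for 10 of 10 transcripts at 5 mg/kg in both lineages and at 50 mg/kg in CD8+ cells. At 50 mg/kg in CD4+ cells this held for 9 of 10. Pools also did not overlap for 57.7% and 72.7% of all CD4+ genes and for 66.0% and 75.8% of all CD8+ genes, at the lower and the higher dose.

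Scaling mattered at the lower dose. With library size alone the median of all genes moved to -0.37 and -0.45 in CD4+ and to -0.43 and -0.53 in CD8+ cells, lower dose first, and genes called higher made up 13.9% and 20.4% of the calls in CD4+ cells in place of 50.4% and 49.2%, and 15.8% and 19.9% in CD8+ cells in place of 49.7% and 50.1%. Under that scaling 6 of 10 members were called higher in CD4+ cells at 5 mg/kg, beside 8.76% of all genes. Anxa6 at 5 mg/kg was then called lower, by -0.09 in CD4+ and by -0.10 in CD8+ cells, and Anxa5 turned to values near 0. The 4 S100 genes and Lgals1 were called higher at both doses in both lineages under either scaling.

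**Figure D2:**
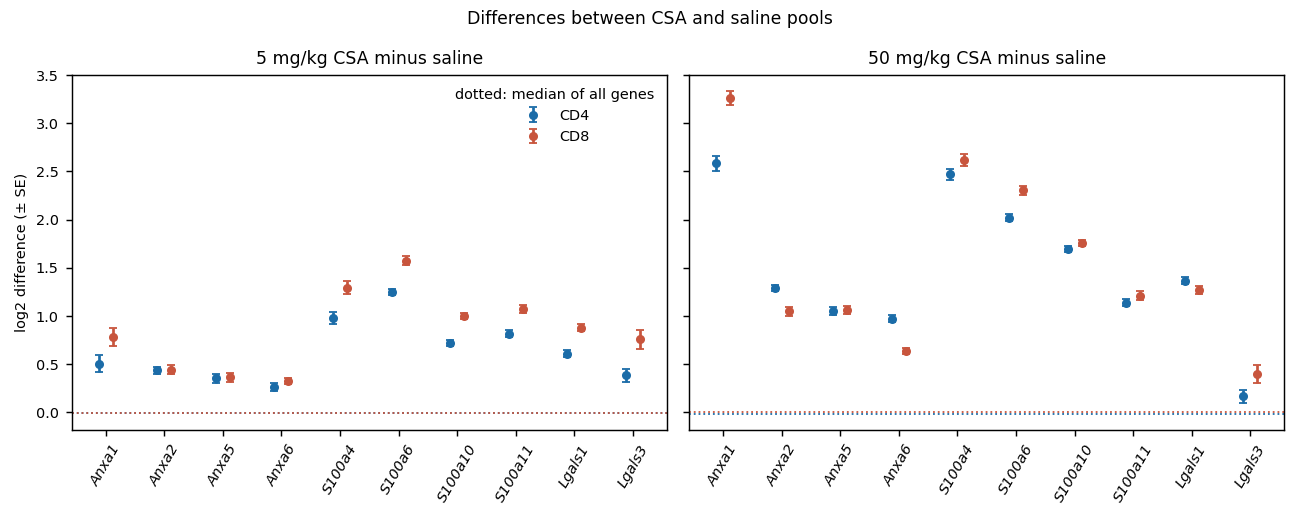
Log2 difference from saline (y axis, ± SE from the fit) of each transcript at 5 mg/kg (left) and 50 mg/kg (right), CD4+ in blue and CD8+ in red, with dotted lines at the median of all genes. S100a6 led at 5 mg/kg with 1.25 and 1.57, and Anxa1 led at 50 mg/kg with 2.58 and 3.26.

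The promoters of members with distinct dose patterns are shown, from RefSeq (GRCm38.p6, the same build as mm10), as the stretch from 250 bases before to 50 bases after the annotated start, 5′ to 3′ on the strand of the gene. RefSeq promoters were matched for 7 of the 10 genes, and Anxa6, S100a10 and Lgals1 had no entry. Capitals mark matches to motifs, searched on either strand. TGANTCA was taken as the AP-1 site. The cyclic AMP response element was taken as TGACGTCA. The GC box was taken as GGGCGG and the TATA box as TATAAA. Anxa1 (chr19:20390622-20390921, minus strand) had the largest higher dose difference, S100a4 (chr3:90603520-90603819, plus strand) the next, S100a6 (chr3:90612644-90612943, plus strand) the largest lower dose difference, and Lgals3 (chr14:47373610-47373909, plus strand) the discordant pattern.
Anxa1 promoter: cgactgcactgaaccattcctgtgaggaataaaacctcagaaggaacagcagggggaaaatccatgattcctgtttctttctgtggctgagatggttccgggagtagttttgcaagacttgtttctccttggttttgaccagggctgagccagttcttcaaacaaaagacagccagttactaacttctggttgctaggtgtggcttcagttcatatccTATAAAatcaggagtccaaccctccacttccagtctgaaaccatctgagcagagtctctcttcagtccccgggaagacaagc
S100a4 promoter: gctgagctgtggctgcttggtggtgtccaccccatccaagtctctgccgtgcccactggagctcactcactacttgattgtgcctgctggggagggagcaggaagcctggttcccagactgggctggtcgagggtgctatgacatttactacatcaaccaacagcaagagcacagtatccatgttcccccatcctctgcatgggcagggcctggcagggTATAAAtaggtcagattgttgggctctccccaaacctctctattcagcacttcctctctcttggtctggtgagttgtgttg
S100a6 promoter: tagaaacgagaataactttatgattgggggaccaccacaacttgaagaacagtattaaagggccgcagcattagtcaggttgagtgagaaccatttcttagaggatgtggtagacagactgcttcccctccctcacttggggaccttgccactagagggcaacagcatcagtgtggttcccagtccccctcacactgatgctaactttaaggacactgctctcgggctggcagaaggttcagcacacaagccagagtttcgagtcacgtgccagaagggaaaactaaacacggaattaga
Lgals3 promoter: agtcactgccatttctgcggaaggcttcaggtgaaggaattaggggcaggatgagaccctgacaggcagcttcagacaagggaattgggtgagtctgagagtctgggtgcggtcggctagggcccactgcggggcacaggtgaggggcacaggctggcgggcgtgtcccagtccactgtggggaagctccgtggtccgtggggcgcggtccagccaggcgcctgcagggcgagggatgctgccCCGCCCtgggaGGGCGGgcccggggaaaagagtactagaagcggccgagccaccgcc
The Anxa1 and S100a4 windows each held 1 TATAAA, as did that of Anxa2, while Lgals3 held 2 GC boxes and S100a6 none of these motifs. TATAAA was found in 13.6% and GGGCGG in 35.7% of 32851 promoters of this length. TGANTCA occurred in the promoters of Anxa2 and S100a11, 2 of 7, against 7.81% of all promoters. The short NFAT core GGAAA, which is too common to mark and can overlap other motifs, was in 5 of 7 against 61.3%. TGACGTCA was in 0 of 7 against 1.79%. A match is a string of letters in this window, not a bound site.

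In position, S100a4 (chr3:90603770-90606045) and S100a6 (chr3:90612894-90614414) lie in the S100 cluster with S100a5 between them, and S100a11 (chr3:93520496-93526288) and S100a10 (chr3:93555117-93564645) form a second pair on the same chromosome. Anxa5 (chr3:36448923-36475887) is distant on it. The others are on chromosomes 9 (Anxa2), 11 (Anxa6), 14 (Lgals3), 15 (Lgals1) and 19 (Anxa1).

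Within clusters the question was whether levels differed inside the cell states the authors defined or only through the mixture of states. Cluster names are the authors', with effector, cycling effector, Tcf7hi, naive and other states in 13 CD4+ and 9 CD8+ clusters. The deposited CD8+ table numbers its clusters otherwise, and names were matched to its numbers by numbers of cells, which is an inference. A look at markers of the matched CD8+ clusters found Tcf7 highest in C5 (354.5 CPM over all pools), Ccr7 in C7 (304.0 CPM), Fcer1g in C6 (496.9 CPM) and Mki67, a proliferation marker, in C4, C2 and C3 (2759, 579.3 and 541.9 CPM). A cluster entered where each compared group had at least 2 pools with 10 or more of its cells. In bulk sums of a lineage, more cells of a type and more RNA per cell cannot be told apart. At 50 mg/kg 78 of 107 tested pairs of member and cluster were called higher and 13 lower in CD4+ cells, and 65 of 79 higher and 4 lower in CD8+ cells. Over all genes 14.8% of such pairs were called higher and 15.4% lower in CD4+ clusters, and 21.3% and 22.1% in CD8+ clusters. At 5 mg/kg 34 of 107 pairs were called higher and 12 lower in CD4+ clusters (7.49% and 5.53% over all genes). In CD8+ clusters 57 of 89 pairs were called in either direction, 55 of them with positive log2 differences, beside 20.4% over all genes.

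Anxa1 was called higher at 50 mg/kg in 8 of 9 CD4+ and 7 of 7 CD8+ clusters, from 1.71 in the Cd226lo effector cluster C1 to 3.94 in the Isg15hi cluster C10 among the called CD4+ values, and up to 4.05 in the CD8+ Tcf7hi cluster C5. S100a4 was called higher in 10 of 10 and 7 of 8, and S100a6 in 10 of 11 and 7 of 8 clusters. The size of the S100a6 difference varied between clusters. In C1 of CD4+ cells S100a6 was 3884 ± 128 CPM under saline and differed by 0.91, in C2 it differed by 0.78, and in C0, the Cd226hi effectors, it was 2090 CPM and differed by 2.01. Clusters were made from these same counts, and such orders are descriptions.

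Lgals3 went the other way inside CD4+ clusters. Its value at 50 mg/kg was negative in 11 of 11 tested clusters and called lower in 7, from -0.44 in C1 to -4.16 in the naive cluster C9, with -1.33 in the Tcf7hi precursor-like cluster C2 and -0.88 in the follicular helper cluster C4. The pooled CD4+ value was 0.17. In CD8+ clusters Lgals3 was called higher in C3, a cycling effector cluster, by 0.40 and in the Tcf7hi cluster C5 by 0.62, and lower in C0 by -0.67, in C1 by -0.24 and in the naive cluster C7 by -1.87. These differences are scaled by TMM. Without TMM the CD8+ C3 level was 1347 ± 14.6 CPM under saline and 1290 ± 245 CPM at 50 mg/kg, which is not a rise. The cells were distributed differently by group: C1, where Lgals3 was highest at 653.4 ± 16.9 CPM at 50 mg/kg, had 783 CD4+ cells at 50 mg/kg and 365 under saline, whereas C4 had 45 and 733. How much of the pooled value this shift of cells makes up was not tested.

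The naive CD4+ cluster stood apart from the rest for several members. In CD4+ C9, Anxa2 was 320 CPM under saline and 26.9 CPM at 50 mg/kg, S100a6 1565 and 229.2 CPM, and Lgals1 2300 and 516.1 CPM, with log2 differences of -3.23, -2.64 and -1.98, all called lower. S100a10 and S100a11 were also called lower there, by -1.11 and -1.70, whereas the value of Anxa6 was positive, as in 11 of 11 CD4+ clusters. Transcripts that naive CD4+ cells should not hold were lower too, both chosen after their values were seen. Cd8b1 was 253.3 CPM in C9 under saline, 140.1 CPM with the lower and 27.4 CPM with the higher dose, and Gzmb was 553.6, 395.8 and 67.3 CPM. In the Cd226hi effector cluster of CD4+ cells Cd8b1 was also lower, at 193.0 CPM under saline and 22.6 CPM at 50 mg/kg, while 9 of the 10 members were called higher there. The part of free RNA in the naive values was not tested. In CD8+ C7 only S100a11 (-0.61) and Lgals3 (-1.87) were called, and Anxa1 was too low to test. Few genes were called in that cluster, 118 of 3357 tested. Anxa2, Anxa5, Anxa6 and S100a4 had positive values there, as in 8 of 8 CD8+ clusters.

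**Figure D3:**
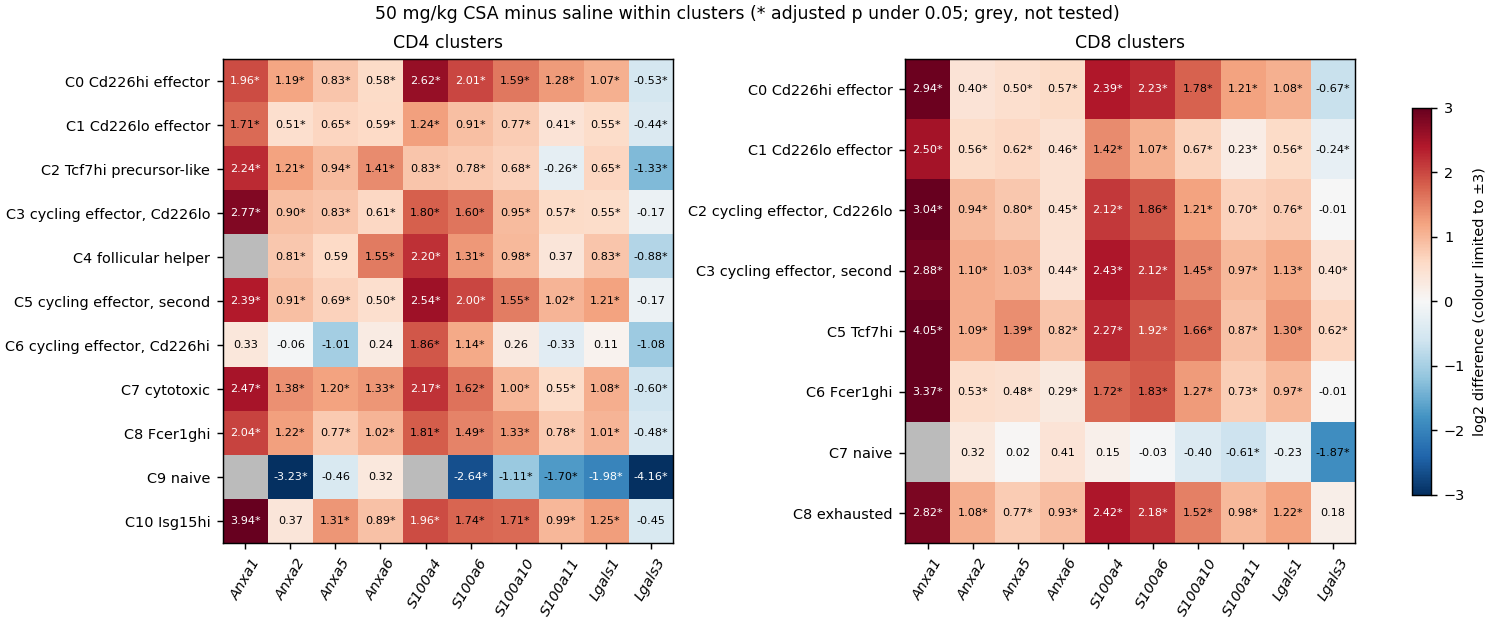
Log2 difference at 50 mg/kg from saline for each transcript (columns) within each CD4+ (left) and CD8+ (right) cluster (rows), red for higher and blue for lower, colour limited to ±3, asterisks for calls at adjusted p under 0.05 and grey where not tested. Besides Lgals3, with values down to -4.16, the transcripts called lower were in the naive rows (C9 left, C7 right) and S100a11 in CD4+ C2 (-0.26).

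Levels across clusters were ordered alike for the S100 genes. Under saline the highest mean of S100a4, S100a6, S100a10, S100a11 and Lgals3 was in C1, the Cd226lo effectors, in both lineages. The lowest S100a6 was in the cycling Cd226hi cluster C6 of CD4+ cells (1094 ± 64.8 CPM) and in the naive C7 of CD8+ cells (1082 ± 214 CPM). Anxa2 was highest in cycling effectors, at 983.4 ± 79.6 CPM in CD4+ C5 and 1068 ± 27.3 CPM in CD8+ C3. Many neighbours in these orders did not differ beyond their spread: over 11 CD4+ clusters with 3 saline pools, pools of adjacent clusters overlapped in 8 of 10 steps for S100a6 and in 9 of 10 for Anxa1. For S100a4 and Lgals3 they overlapped in 10 of 10, the step below C1 included. At 50 mg/kg the regulatory cluster C11, too small under saline to compare, had the highest S100a6 (7832 ± 414 CPM) and S100a10 (6940 ± 926 CPM) of the CD4+ clusters.

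Across 62 means of cluster and treatment (both lineages, at least 30 cells), S100a4 and S100a6 were the most alike pair of members (Pearson r = 0.94 on log2(CPM + 1)), followed by S100a4 and S100a10 (0.92) and Anxa2 and Lgals1 (0.90). Lgals3 ranged from r = 0.36 to Anxa5 and 0.38 to Anxa1 up to 0.76 to Anxa2 and 0.76 to Lgals1. These points share captures, depth and dose, so the values describe them only. Among 3244 genes of at least 50 CPM, the nearest to Anxa1 were S100a4, Arpc2 and Cldnd1 (r from 0.82 to 0.88), the nearest to S100a6 were S100a4, Crip1 and S100a10 (0.89 to 0.94), the nearest to Anxa6 were Vim, Cd48 and Tpst2 (0.84 to 0.90), and the nearest to Lgals3 were Serpinb6b, Efhd2 and Pglyrp1 (0.84 to 0.87). For S100a10 they were S100a4, Lsp1 and Sh3bgrl3 (0.92 each), for S100a11 Prr13, S100a10 and S100a6, for Anxa5 Arpc2, Capg and S100a10, and for S100a4 S100a6, S100a10 and Arpc2. Anxa2 had Lgals1, the unnamed locus CAAA01147332.1 and Actg1, and Lgals1 had the same locus, Reep5 and Anxa2.

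The next comparisons use groupings inside each pool. The choice of genes did not use the clonotypes, and TEa cells were left out of the sums above, so tests are given for both. Neither is independent of that choice. The clonotype sums regroup counts of the same cells, and the paper reported clonality that differed between clusters. The polyclonal sums are 1 side of the TEa comparison. Whether the choice used the contrast of CD8+ and CD4+ cells cannot be told, and that contrast is described without p-values. Expanded clonotypes, those found in 2 or more cells of a pool and lineage, were set against single ones with the pool as a block (1701 expanded and 6283 single CD4+ cells, 2662 and 6341 CD8+ cells). Each fit gives 1 value over all treatments, and SDs over 9 pools include the spread between doses. In CD4+ cells 9 of 10 transcripts were higher in expanded clonotypes, against 8.95% of all genes called higher. Lgals3 differed most, with 773.2 ± 157.7 CPM in expanded and 491.5 ± 44.9 CPM in single cells (SD, n = 9 pools), a log2 difference of 0.61 ± 0.05 (adjusted p = 1.86e-09 by edgeR, higher in 9 of 9 pools). Anxa1 followed with 0.59 ± 0.07 (adjusted p = 5.61e-07) and Anxa2 with 0.52 ± 0.05 (adjusted p = 7.87e-09), both in 9 of 9 pools. Anxa5 was not called, at 0.06 ± 0.04 (adjusted p = 0.368). The same 9 were called in cells outside the cycling clusters, with Lgals3 at 0.66 and Anxa1 at 0.75.

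In CD8+ cells the expanded differences were smaller and fewer. Lgals3 was at 0.25 ± 0.03 (adjusted p = 1.8e-06), Anxa2 at 0.22 ± 0.03 (adjusted p = 2.68e-06), Lgals1 at 0.15 ± 0.02 (adjusted p = 4.71e-05) and S100a4 at 0.13 ± 0.03 (adjusted p = 0.00863), each higher in 9 of 9 pools, against 6.59% of all genes called higher. The S100a4 call was lost without the third 50 mg/kg pool (0.10) and without the block. Anxa1 was at 0.01 ± 0.06 and higher in 3 of 9 pools, and Anxa5, Anxa6, S100a6, S100a10 and S100a11 were not called either. Values near 0 can hide opposite signs by group. The mean log2 ratio of expanded to single CD8+ cells was -0.14 under saline and 0.04 at 50 mg/kg for S100a10. For Anxa5 it was -0.07 and 0.14, and for Anxa1 -0.17 and 0.17. Whether treatments, or CD4+ and CD8+ cells, differ in the clonotype differences was not tested.

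TEa cells were compared with the polyclonal CD4+ cells of the same pool in the 7 pools with at least 10 TEa cells. At 50 mg/kg only the first pool, with 11 TEa cells, was among them, so the comparison rests mostly on saline and 5 mg/kg pools. S100a6 was higher by 0.34 ± 0.06 (adjusted p = 4.21e-06), Anxa2 by 0.33 ± 0.07 (adjusted p = 0.000873) and Lgals1 by 0.29 ± 0.06 (adjusted p = 0.000172), each in 7 of 7 pools. Lgals3 at 0.30 ± 0.08 (adjusted p = 0.00793, 6 of 7 pools) and S100a10 at 0.24 ± 0.06 (adjusted p = 0.00665, 7 of 7 pools) were called too, and lost the call without the second saline pool (0.24 and 0.21), as did Lgals3 without the third 5 mg/kg pool (0.19) and with DESeq2 (0.35) and S100a10 without the first (0.21) or the second (0.23) 5 mg/kg pool. In all, 5 of 10 were higher, against 0.835% of all genes. Anxa1 was at 0.29 ± 0.14 (adjusted p = 0.387). In the 50 mg/kg pools left out, Lgals1 was lower in TEa than in polyclonal cells, at 3331 against 5984 and 3588 against 5659 CPM. Lgals3 and S100a10 were lower in both of these pools too. S100a6 and Anxa2 were lower in the pool with 7 TEa cells and higher in that with 9.

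The change with dose was also computed in TEa cells alone, a comparison added after the data were seen, in cells left out of the sums above but from the same mice and captures. TEa cells numbered 123 under saline, 130 with the lower and 27 with the higher dose. A lower limit on cells was used than in the comparison with polyclonal cells, so all 50 mg/kg pools entered, with 11, 7 and 9 TEa cells. S100a4 was at 171.1 ± 15.4, 328.1 ± 25.5 and 713.1 ± 86.9 CPM (SD, n = 3 pools), S100a6 at 2493 ± 183, 4377 ± 699 and 6544 ± 2559 CPM, and Lgals3 at 647.1 ± 148.1, 799.8 ± 173.1 and 444.8 ± 266.1 CPM. At 50 mg/kg the log2 differences were 2.27 ± 0.21 for S100a4, 1.62 ± 0.19 for S100a6, 1.34 ± 0.34 for Anxa1 and -0.21 ± 0.27 for Lgals3. Of the 10, 7 were called higher at 50 mg/kg, against 7.07% of all genes, with Lgals1, S100a11 and Lgals3 not called, and between 3 and 9 were called when 1 pool was left out. S100a4, S100a6 and S100a10 held the call each time. The list was chosen on the same treatment contrasts in other cells of these mice, and nothing is drawn from these calls.

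Between lineages under saline, in 1 edgeR fit with the pool as a block, 5 transcripts were called higher in CD8+ cells (21.6% of all genes were) and 3 lower (18.5%). These values are a description, and nothing is drawn from the calls. Lgals3 was higher by 0.93 ± 0.06, Anxa2 by 0.67 ± 0.03, Lgals1 by 0.41 ± 0.03, Anxa6 by 0.40 ± 0.03 and S100a6 by 0.28 ± 0.03. Anxa1 was lower by -0.62 ± 0.08, Anxa5 by -0.16 ± 0.05 and S100a11 by -0.14 ± 0.04. The Anxa5 call was lost without the second saline pool or the third and the S100a11 call without the first. S100a4 and S100a10 did not pass, at 0.03 ± 0.07 and -0.03 ± 0.03. The difference between lineages in the change with CSA rests on the treatment contrasts and is a description: at the lower dose 5 members were called as changing more in CD8+ cells, beside 2.05% of all genes, and at the higher dose 2 as changing more and 3 less, beside 8.83% and 10.5%.

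**Figure D4:**
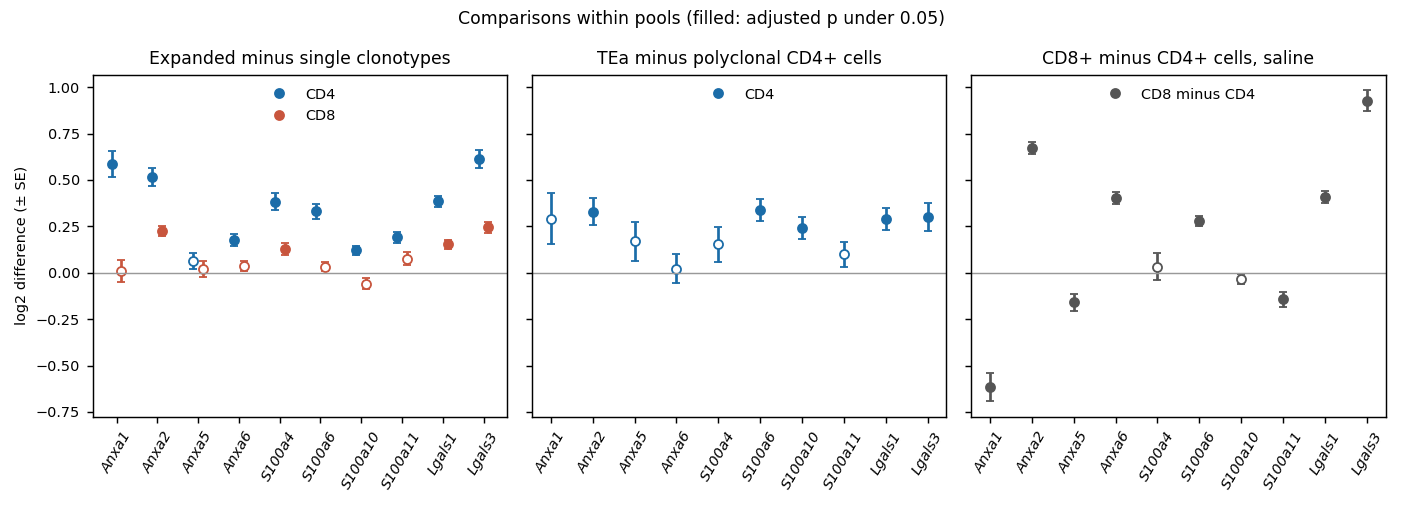
Log2 difference (y axis, ± SE) of each transcript between expanded and single clonotypes (left, CD4+ blue, CD8+ red), between TEa and polyclonal CD4+ cells (middle) and between CD8+ and CD4+ cells under saline (right), with filled points at adjusted p under 0.05. Lgals3, Anxa2 and Lgals1 were called higher in every comparison shown, and Anxa1 was high in CD4+ expanded cells (0.59) and low in CD8+ cells under saline (-0.62).

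The wider families were followed as 34 further annexin, S100 and galectin genes, of which 26 were in the table and 15 were tested. At 50 mg/kg 8 were called higher and 4 lower in CD4+ cells and 8 higher and 2 lower in CD8+ cells, with medians of 0.46 and 0.40. Over all genes 34.7% were called higher and 35.8% lower in CD4+ cells, and 37.1% and 36.9% in CD8+ cells. S100a13 rose by 1.58 ± 0.04 and 1.65 ± 0.04 in CD4+ and CD8+ cells, and S100a1, which overlaps S100a13 and may share its reads, by 0.89 ± 0.22 and 1.28 ± 0.14. Anxa4, Anxa7 and Lgals9 rose by 0.80, 0.63 and 0.58 in CD4+ cells, and Lgalsl was lower, at -0.87 and -1.15 in CD4+ and CD8+ cells. S100a8 and S100a9, which neutrophils make in bulk, were highest at the lower dose, where S100a8 differed by 1.15 ± 0.17 in CD4+ and 0.98 ± 0.12 in CD8+ cells (named after their values were seen). The 9 neutrophil markers summed to 74.8 to 106.0 CPM under saline, 106.2 to 191.2 at 5 mg/kg and 63.4 to 98.6 at 50 mg/kg in CD4+ cells.

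Partners and receptors of these proteins moved mostly down. Of 20 listed, 14 were tested in CD4+ and 16 in CD8+ cells, with 4 called higher and 9 lower in CD4+ and 4 higher and 10 lower in CD8+ cells at 50 mg/kg. Mgat5, which builds the branched glycans that galectins bind, was lower by log2 differences of -1.79 and -1.44 in CD4+ and CD8+ cells. Itgb1, an integrin chain, was at -1.42 and -0.43, and Ptprc, a glycoprotein bound by galectins, at -0.64 and -0.84. Ahnak, a large ligand of the Anxa2 and S100a10 complex, was at -0.49 and -0.73. Of all genes, 35.8% in CD4+ and 36.9% in CD8+ cells were called lower at this dose. The partners were not set beside genes of like length. In the longest of 10 bins of transcript length, described below, the median over all genes was -0.77 in CD4+ and -0.80 in CD8+ cells. Pdcd6 and Sugt1 rose, by 0.63 and 0.46 in CD4+ cells.

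Of 20 migration and actin genes, 14 were called higher and 5 lower in CD4+ cells and 15 higher and 5 lower in CD8+ cells at 50 mg/kg, beside 34.7% higher and 35.8% lower over all CD4+ genes and 37.1% and 36.9% over all CD8+ genes. Crip1 rose by 1.99 ± 0.03 and 1.97 ± 0.04, Capg by 1.86 ± 0.06 and 1.55 ± 0.06, Emp3 by 1.64 ± 0.04 and 1.39 ± 0.04, Tmsb10 by 1.60 ± 0.03 and 1.75 ± 0.03 and Vim by 1.23 ± 0.04 and 1.00 ± 0.04. Itga4, an integrin chain, was lower, at -1.55 and -1.74. The medians of this list were 0.80 and 0.76.

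Short and long transcripts differed in these libraries, so the members were set beside genes of like length, a description added after the data were seen. In 10 bins of median transcript length, with a length for 99.2% of genes tested in each lineage, the median log2 difference at 50 mg/kg ran from 0.46 in the shortest to -0.77 in the longest bin in CD4+ cells and from 0.57 to -0.80 in CD8+ cells. The 4 S100 genes were in the shortest bin, at lengths of 417 to 597.5 bases, Anxa2, Lgals1 and Lgals3 were in the second, and Anxa6 was the longest at 2480 bases. Above the median of its bin, Anxa1 stood by 2.34 in CD4+ and 3.10 in CD8+ cells, S100a4 by 2.01 and 2.05, and Anxa6 by 1.12 and 0.79. Lgals3 was below it, by -0.27 and -0.11. At 5 mg/kg Anxa2 was above it by 0.10 in CD4+ and 0.02 in CD8+ cells, and Anxa5 differed from it by 0.03 and -0.01. The part of transcript length in these differences was not tested. Partners, migration and actin genes and the wider families were not set beside their bins.

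**Figure D5:**
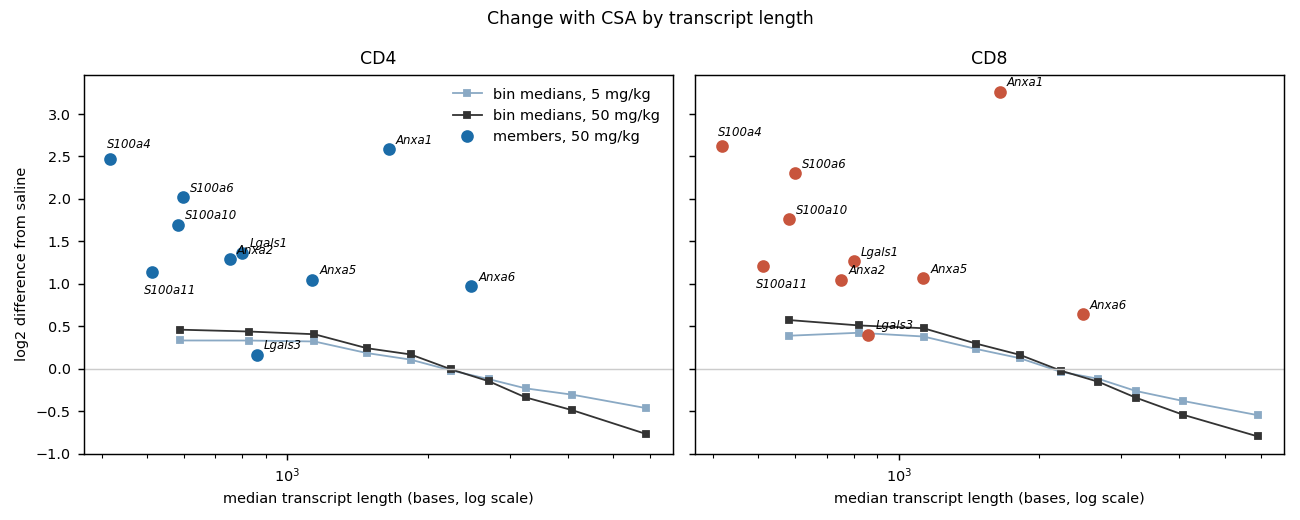
Log2 difference from saline (y axis) against median transcript length (x axis, bases, log scale) in CD4+ (left) and CD8+ (right) cells, with squares for the medians of 10 length bins of all genes at 5 and 50 mg/kg and circles for the members at 50 mg/kg. Bin medians fell from 0.46 to -0.77 in CD4+ cells at 50 mg/kg, and 9 of 10 members lay above their bin in each lineage, with Lgals3 below it.

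Markers of other cell types were present at low levels. Monocyte and macrophage markers, in which Lgals3 and Anxa family genes are also abundant, summed to 365.6 to 489.3 CPM over all CD4+ pools and to 410.1 to 521.6 CPM over all CD8+ pools, with ranges that overlapped between the 3 groups. B cell markers summed to 199.0 to 213.3 CPM under saline and 284.5 to 335.5 CPM at 50 mg/kg in CD4+ cells, and to 189.6 to 212.3 and 571.1 to 743.7 CPM in CD8+ cells. Erythroid markers summed to 7.48 to 18.8 and 29.6 to 40.1 CPM and platelet markers to at most 9.76 CPM in CD4+ cells. In the 1151 CD4+ cells without any UMI of these other lineages, 2 of 10 members were called higher with the lower dose (4.88% of the genes tested there) and 8 with the higher (15.7%), where S100a4 and Anxa1 kept their direction, and Lgals3 was at -0.17. In 654 such CD8+ cells 5 members were called higher from the lower to the higher dose (3.15% of the genes tested there), and Lgals3 was lower than under saline at 50 mg/kg, by -0.44. These cells were few and shallow, and their number differed by dose. Under saline they were 628 CD4+ and 428 CD8+ cells, and at 50 mg/kg 142 and 79. The part of other cells' RNA in the values was not tested further.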

How the data were processed

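Single cell 5' gene expression was measured in CD4+ and CD8+ donor T cells of 3 captures, each holding 3 hashtag pools of 2 mice. The authors deposited UMI counts per gene and cell, not normalized, with tables of pool, cluster, clonotype and TEa marking per cell, and mitochondrial content as a fraction per the file headers. The submitters' processing notes name Cell Ranger (version not given in the sources used here), Seurat 3.0.0 and build mm10. The deposited tables hold cells the authors had kept, and no further filter on cells or doublets was applied.

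Counts of cells not marked TEa were summed per pool and lineage, so the pool is the replicate (n = 3 per group), and p-values measure the spread between pools of a capture only. Sums were fitted over all 9 pools with edgeR 4.0.16 (R 4.3.3) by the quasi-likelihood test with filterByExpr, TMM and Benjamini-Hochberg adjustment over all genes tested, at a threshold of 0.05. Expanded against single clonotypes, TEa against polyclonal cells and CD8+ against CD4+ cells were fitted with the pool as a block. Fits within clusters used sums of at least 10 cells. Alternatives were DESeq2 1.42.0, library size scaling, no filter on low counts, other choices of cells, and leaving out each pool. The fit steps were tested on simulated data.

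The 10 members and all gene lists were chosen with earlier results of these data known. Beside the members, at most 8 genes of each list were named by the size of their log2 difference at 50 mg/kg, and 3 genes for each member by correlation across cluster means of at least 30 cells and 50 CPM.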

Additional observations from a re-analysis of the deposited data

Results flagged for a closer look

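The change with CSA was called as different between CD8+ and CD4+ cells for several members in an edgeR fit of the difference itself (interaction of lineage and treatment with the pool as a block, threshold 0.05 on p adjusted over all genes). Since the treatment contrasts were part of what the members were chosen on, these values are a description of differences between 2 such contrasts, without p-values, and nothing is drawn from the calls.

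At 5 mg/kg the CD8+ change was called larger for 5 of 10 members, beside 2.05% of all genes. The difference of log2 changes was 0.29 ± 0.04 (SE) for S100a6, 0.24 ± 0.04 for S100a10, 0.24 ± 0.04 for Lgals1, 0.34 ± 0.08 for Lgals3 and 0.22 ± 0.05 for S100a11. The Lgals3 call was lost without the block, and without the second (0.31) or the third (0.30) 5 mg/kg pool or the first (0.26) or the third (0.33) saline pool. The S100a11 call was lost without the block, and without the first (0.20) or second (0.24) 5 mg/kg pool or the first saline pool (0.17).

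At 50 mg/kg the CD8+ change was called larger for Anxa1, by 0.65 ± 0.09, and for S100a6, by 0.25 ± 0.04, beside 8.83% of all genes. It was called smaller for Anxa6, by -0.36 ± 0.04, for Anxa2, by -0.28 ± 0.05, and for Lgals1, by -0.13 ± 0.04, beside 10.5% of all genes. The Lgals1 call was lost with DESeq2 (-0.11), without the block, and in 6 of 9 fits that left out 1 pool, which ranged from -0.19 to -0.10.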

How the results depend on the processing

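Scaled by library size, calls higher and lower against saline became 926 and 5718 (main 2758 and 2709) at 5 mg/kg and 1599 and 6239 (main 3669 and 3785) at 50 mg/kg in CD4+ cells, and 1180 and 6270 (main 3241 and 3282) and 1690 and 6794 (main 4021 and 4003) in CD8+ cells. 6 members were then called higher in CD4+ cells at 5 mg/kg (8.76% of all genes), with reversed values of -0.00596 for Anxa5 and -0.0917 for Anxa6, and in CD8+ cells -0.0581 for Anxa5 and -0.0974 for Anxa6, and Lgals3 at 50 mg/kg was at -0.272 and -0.131. Pairs of member and cluster called higher at 5 mg/kg were 21 in CD4+ (main 34) and 28 in CD8+ cells (main 55).

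In cells without marker UMIs of another lineage, genes called at 5 and 50 mg/kg and between doses were 406, 1753 and 766 in CD4+ and 1068, 1663 and 257 in CD8+ cells, with far fewer cells. 2 members were called higher in CD4+ cells at 5 mg/kg (4.88% of 5904 genes) and 5 in CD8+ cells between doses (3.15% of 3783). Reversed values at 5 mg/kg were -0.0781 for Anxa1, -0.0836 for Anxa2, -0.0466 for Anxa6 and -0.0150 for Lgals3 in CD4+ cells and -0.0536 for Anxa2 in CD8+ cells, and at 50 mg/kg Lgals3 was at -0.167 and -0.436. Outside the cycling clusters Lgals3 in CD4+ cells at 50 mg/kg was at -0.0638, 2836 genes were called between doses in CD8+ cells (main 4443), and 501 and 195 between expanded and single CD4+ and CD8+ clonotypes (main 1724 and 1379). DESeq2 called 1028 and 696 there, 112 for TEa against polyclonal cells (main 268), 1933 between lineages under saline (main 4483), and 264 and 658 for the difference between lineages in the change at 5 and 50 mg/kg (main 399 and 2158). The cause of these shifts was not tested.

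Leaving out 1 pool, genes called ranged from 4790 to 5526, 7032 to 7540 and 3712 to 4344 in CD4+ cells (5 mg/kg, 50 mg/kg, between doses) and from 5945 to 6706, 7639 to 8063 and 3583 to 4352 in CD8+ cells. They ranged from 180 to 272 for TEa cells, with 3 to 5 members, where without the second saline pool 3 were called, and from 167 to 477 for the difference between lineages at 5 mg/kg, with 3 to 6 members. That count was 203 and 169 without the first and second 5 mg/kg pool and 220 and 167 without the first and second saline pool. In CD4+ cells Lgals3 at 50 mg/kg lost its call with DESeq2 (0.18) and without the third 50 mg/kg pool (0.11) or the second (0.08) or the third (0.16) saline pool. S100a11 between doses in CD8+ cells lost it without the second 5 mg/kg pool (0.12) or the third 50 mg/kg pool (0.07).

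Hashtag numbers recur in every group, but same-numbered pools did not deviate together (correlations from -0.12 to 0.01 in CD4+ and from -0.26 to 0.14 in CD8+ cells). With the hashtag number as a replicate block, the members' dose values kept their direction and call. Without the pool as a block, 219 genes and 3 members were called for the difference between lineages at 5 mg/kg, and S100a4 between CD8+ clonotypes lost its call (0.13).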
